A study of Mus musculus with 26 samples.

Results

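The 10 genes described here, Ccnd1, Ccnd2, Ccnd3, Cdkn1a, Cdkn1b, Cdkn1c, Cdkn2c, Rb1, Rbl1 and Rbl2, encode the D cyclins, the CDK inhibitors that restrain them and the pocket proteins that they act on. They were taken by name from the 55341 genes counted in each library, and each matched a single Ensembl gene. The 26 libraries were poly(A) RNA-seq of C2C12 cells, mouse myoblasts that stop dividing and fuse into muscle fibres once serum is withdrawn. Cells were harvested at 0 h, which the study calls undifferentiated, and at 24 h of differentiation. In the knockdown experiment, 18 libraries came from cells transfected with a control siRNA (siCtrl) or with either of the siRNAs siSMYD3#1 and siSMYD3#2 against Smyd3, which encodes a lysine methyltransferase, with 3 libraries per siRNA and time point. The cells were transfected while proliferating and again when differentiation was induced. Each such group held 2 libraries from RNA prepared with NucleoSpin columns and 1 from RNA prepared with TRIzol, which also came from an earlier passage, so extraction and passage cannot be told apart. In the overexpression experiment, 8 TRIzol libraries compared SMYD3 CL5, a single clone carrying a retroviral pREV construct for HA- and Flag-tagged SMYD3, with cells carrying the empty pREV vector, with 2 libraries per line and time point.

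As background, D cyclins activate the kinases CDK4 and CDK6, which phosphorylate the retinoblastoma protein and its relatives p107 and p130. While unphosphorylated, these pocket proteins hold E2F transcription factors and keep the genes of S phase silent, and the Cip/Kip and INK4 inhibitors act upstream by blocking cyclin-dependent kinases. Myoblasts have to leave the cell cycle before they differentiate, and p21, p57, cyclin D3, the retinoblastoma protein and p130 are known for their parts in that exit, whereas cyclin D1 and p107 belong to the proliferating state.

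Levels are given as CPM, the read count of a gene scaled to its library's total after trimmed-mean normalisation, and as RPKM, which divides CPM by exon length, wherever one gene is compared with another. Log2 fold changes and their tests come from the raw counts. Log2 changes set side by side for TRIzol and NucleoSpin are instead ratios of mean CPM, with 1 TRIzol library per group. Library totals ran from 14315193 to 60398170 counts in the knockdown experiment and from 21124675 to 67853386 in the overexpression experiment. Smyd3 itself was at 19.5 ± 1.48 CPM in siCtrl and 6.82 ± 2.45 CPM in siSMYD3#2 at 24 h (mean ± SD, n = 3; log2 fold change −1.51, and −1.41 at 0 h, adjusted p = 5.06e-05 and 0.000107 by edgeR's quasi-likelihood test). In the libraries labelled siSMYD3#1 it was at 16.5 ± 2.4 CPM at 24 h (log2 fold change −0.24, adjusted p = 0.414), so its mRNA did not mark those libraries as knocked down. In the libraries labelled SMYD3 CL5 it was at 22.6 ± 2.36 CPM against 17.7 ± 0.813 CPM in vector cells at 24 h (n = 2, adjusted p = 0.671). The study checked its knockdown by qPCR and western blot and the tagged protein in its clones by western blot and immunofluorescence. Whether reads of the construct count towards Smyd3 was not tested. Of the muscle markers, Des (67.3 to 1510 CPM), Chrna1 (134 to 819), Cdh15 (72.1 to 430), Myf5 (58.9 to 110) and Myod1 (4.67 to 38.6) were present in every knockdown library. The others, Myog (0.135 to 262 CPM), Myh3 (0.0966 to 311) and Ckm (0 to 48.8), had few or no reads in some knockdown libraries. Among markers of fibroblasts, endothelium, leukocytes, epithelium and adipocytes, Thy1, Adgre1 and Epcam had no count in any knockdown library, while Dcn (0.531 to 67.9 CPM), Col15a1 (1.11 to 32.1), Pdgfra (3.09 to 11.7), Cd68 (1.75 to 6.57), Krt19 (2.2 to 12.7) and Lpl (44.5 to 90.2) were detected in every knockdown library. Their part in the results was not tested. The 2 SMYD3 CL5 libraries at 0 h were unlike each other. Their correlation was 0.949, against 0.977 to 0.992 for the pairs of the other overexpression groups and a lowest value of 0.95 to 0.969 within the knockdown groups, and the longest genes (the upper quartile of length) were lower in replicate 2 than in replicate 1 by a median log2 difference of −0.59. These measures do not show which of the 0 h pair departs from the rest, so values that rest on those libraries are also given without either. The SMYD3 CL5 pair at 24 h (correlation 0.977) had a smaller split of the same kind. Its longest genes were lower in replicate 2 than in replicate 1 by a median log2 difference of −0.28. Fits without either of the 24 h libraries are not given.

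The 10 genes lie on 7 chromosomes of GRCm38, with Ccnd1 at chr7:144929931-144939925, Ccnd2 at chr6:127125162-127152193, Ccnd3 at chr17:47505051-47599691, Cdkn1a at chr17:29090976-29100727, Cdkn1b at chr6:134920401-134925513, Cdkn1c at chr7:143458339-143461050, Cdkn2c at chr4:109660876-109667189, Rb1 at chr14:73183673-73325822, Rbl1 at chr2:157145893-157204534 and Rbl2 at chr8:91070057-91123844. Exons of 7 of the 10 overlap an exon on the opposite strand, with the longest overlaps at Rbl2 (1585 bases, with Aktip and Gm45464) and Ccnd1 (1100 bases). The study made its libraries with a stranded kit, but whether the counting used strand is not given in the sources used here. Reads of these pairs may therefore not have been kept apart. RefSeq promoter sequences, which run from 250 bases before to 50 bases after a transcript start, were at hand for 6 of the 10 genes and not for Ccnd1, Ccnd2, Cdkn1c and Rb1. Those of Cdkn1a, Cdkn1b, Ccnd3, Rbl2 and Rbl1 are shown because these genes passed the test at 24 h in siCtrl. Cdkn1a and Ccnd3 have 2 promoters each in the reference, of which the one with more motif matches is shown, so its count is not that of a typical promoter of the gene. The other one held 1 E-box and none of the SMYD3 letters at Cdkn1a, and 1 match to the SMYD3 letters at Ccnd3. Sequences run 5′ to 3′ on the strand of the gene in GRCm38.p6, and capitals mark matches on either strand to the E-box CANNTG, to CCCTCC or GAGGGG (letters described for SMYD3), to the E2F letters TTTGGCGC, TTTCCCGC or TTTCGCGC, and to the cell cycle homology region (CHR) TTTGAA.
Cdkn1a, chr17:29093519-29093818, plus strand: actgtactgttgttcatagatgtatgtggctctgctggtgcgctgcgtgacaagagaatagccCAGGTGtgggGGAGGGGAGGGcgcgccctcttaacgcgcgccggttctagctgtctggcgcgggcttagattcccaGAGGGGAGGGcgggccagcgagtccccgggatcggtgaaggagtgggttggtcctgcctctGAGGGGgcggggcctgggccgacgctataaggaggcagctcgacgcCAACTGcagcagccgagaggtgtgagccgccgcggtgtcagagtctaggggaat
Cdkn1b, chr6:134920151-134920450, plus strand: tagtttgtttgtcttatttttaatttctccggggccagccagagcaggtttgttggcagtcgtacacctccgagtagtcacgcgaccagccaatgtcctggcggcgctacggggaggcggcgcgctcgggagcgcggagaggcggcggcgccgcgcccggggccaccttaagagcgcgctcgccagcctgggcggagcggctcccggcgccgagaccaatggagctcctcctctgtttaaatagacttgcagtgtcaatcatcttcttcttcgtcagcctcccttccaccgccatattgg
Ccnd3, chr17:47593217-47593516, plus strand: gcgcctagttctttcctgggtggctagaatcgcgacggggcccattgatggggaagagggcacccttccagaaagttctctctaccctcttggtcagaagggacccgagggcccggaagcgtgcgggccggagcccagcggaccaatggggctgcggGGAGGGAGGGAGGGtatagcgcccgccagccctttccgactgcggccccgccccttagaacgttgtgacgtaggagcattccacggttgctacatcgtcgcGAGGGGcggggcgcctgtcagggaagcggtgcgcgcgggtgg
Rbl2, chr8:91069807-91070106, plus strand: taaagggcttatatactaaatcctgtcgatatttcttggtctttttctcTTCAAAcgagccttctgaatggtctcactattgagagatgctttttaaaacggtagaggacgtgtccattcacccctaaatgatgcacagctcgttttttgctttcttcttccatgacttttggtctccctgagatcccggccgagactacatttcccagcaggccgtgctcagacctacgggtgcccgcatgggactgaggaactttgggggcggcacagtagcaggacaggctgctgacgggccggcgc
Rbl1, chr2:157204485-157204784, minus strand: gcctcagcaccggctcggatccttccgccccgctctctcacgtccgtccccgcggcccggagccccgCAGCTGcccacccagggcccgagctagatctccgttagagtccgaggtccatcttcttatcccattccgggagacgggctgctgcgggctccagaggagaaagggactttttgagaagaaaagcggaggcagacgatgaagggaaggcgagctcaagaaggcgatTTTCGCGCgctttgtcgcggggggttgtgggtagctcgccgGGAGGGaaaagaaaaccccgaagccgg
The Cdkn1a window held 2 E-boxes and 6 matches to the SMYD3 letters in 3 stretches, and the Ccnd3 window held 4 of the latter and no E-box. In Rbl1 there were an E2F match 18 bases before the start, an E-box of the form CAGCTG and 1 match to the SMYD3 letters, while Rbl2 held only a CHR match. The Cdkn1b window held none of these letters. Over all 32851 promoters in the reference, 72.3% held an E-box and 16.3% the form CAGCTG, 48.1% the SMYD3 letters, 1.84% an E2F match and 17.9% a CHR match, against 4, 2, 5, 1 and 1 of the 9 promoters of these genes. A match describes letters in a window and is not a bound site.

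Comparing 24 h with 0 h in siCtrl cells asks how these genes moved in differentiation with a control siRNA. These cells were transfected again when differentiation was induced, and any effect of that transfection was not separated. Cdkn1a, Cdkn1b, Cdkn1c, Ccnd3, Rb1 and Rbl2 rose and Ccnd1 and Rbl1 fell, so 8 of the 10 passed an adjusted p of 0.01. Of 15820 genes tested, 14.6% rose and 14.8% fell. The median log2 change of the 10 genes was 0.58, against 0.03 over all genes tested. In bulk RNA a shift in the share of cells that express a gene and a change of RNA per cell cannot be told apart.

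Among the D cyclins, Ccnd1 fell and Ccnd3 rose. Ccnd1, which encodes the cyclin that growth factors induce, was at 428 CPM in the TRIzol library and at 352 and 344 CPM in the NucleoSpin libraries of siCtrl at 0 h, and at 114, 226 and 235 CPM, in the same order, at 24 h. All 24 h libraries lay below all 0 h libraries, with a mean of 374 ± 46.6 CPM at 0 h and 192 ± 67.5 CPM at 24 h (log2 fold change −1.0, SE 0.203, adjusted p = 0.00108). The log2 change was −1.91 in TRIzol and −0.59 in NucleoSpin. Ccnd3, the D cyclin that persists in muscle fibres, went from 148 CPM (TRIzol), 134 and 165 CPM (NucleoSpin) to 189, 247 and 269 CPM. Every 24 h library was above every 0 h library, a 1.57-fold rise (log2 0.65, SE 0.102, adjusted p = 5.59e-05).

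Ccnd2, the third D cyclin, split by extraction. It was at 19.1 CPM in the TRIzol library of siCtrl at 0 h against 110.4 and 111 CPM in NucleoSpin, and at 13.5 CPM against 230.4 and 239 CPM at 24 h. TRIzol libraries stayed low at both times while the NucleoSpin pair was higher at 24 h, and the combined change did not pass the threshold (log2 fold change 0.65, SE 0.288, adjusted p = 0.0871). Within NucleoSpin alone it did (log2 1.07, adjusted p = 2.47e-08), and likewise without the TRIzol siCtrl library at 24 h (log2 0.94, adjusted p = 0.00409).

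**Figure D1:**
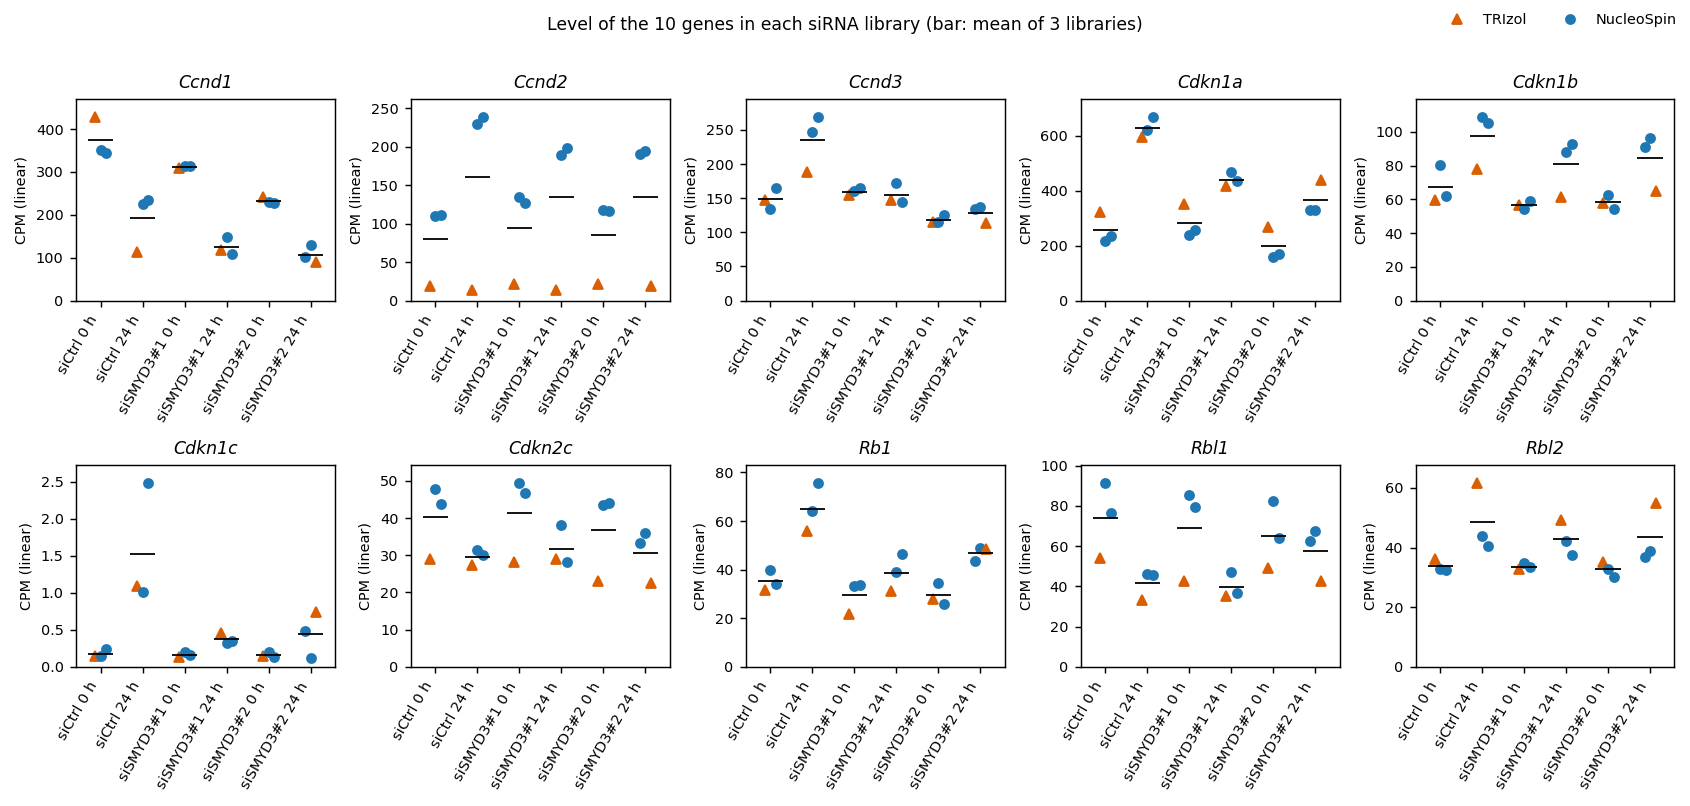
Level of each of the 10 genes (CPM, linear axis) in the 18 knockdown libraries by siRNA and time, with triangles for TRIzol, circles for NucleoSpin and a bar for the mean of 3 libraries. Cdkn1a is highest in the 3 siCtrl libraries at 24 h (596 to 669 CPM), and the Ccnd2 points split by extraction in every group.

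Inhibitors of the Cip/Kip family rose together. Cdkn1a, which encodes p21, went from 322 CPM (TRIzol), 216 and 234 CPM (NucleoSpin) to 596, 622 and 669 CPM, with no overlap between the times. This was a 2.50-fold rise (log2 1.32, SE 0.143, adjusted p = 1.22e-06). Cdkn1c, which encodes p57, was sparse, with 4, 4 and 14 reads at 0 h and 31, 23 and 38 reads at 24 h. On the CPM scale it went from 0.178 ± 0.0538 to 1.53 ± 0.828, a 7.70-fold rise with no overlap (log2 2.95, SE 0.488, adjusted p = 9.32e-05). Cdkn1b, the gene of p27, rose least, from 59.9, 80.5 and 61.9 CPM to 78.0, 109 and 105 CPM. Its TRIzol library at 24 h lay under the highest 0 h library (log2 0.52, SE 0.124, adjusted p = 0.00234), and the call was lost without the siCtrl replicate 3 library at 0 h (adjusted p = 0.0174) or the replicate 2 library at 24 h (0.0106).

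The INK4 inhibitor Cdkn2c, which encodes p18 and binds CDK4 and CDK6 directly, was at 28.9, 47.9 and 43.8 CPM at 0 h and at 27.5, 31.3 and 30.04 CPM at 24 h. Both NucleoSpin libraries were lower at 24 h and the TRIzol library was about level. The combined change missed the threshold (log2 −0.40, SE 0.143, adjusted p = 0.0312), while the NucleoSpin libraries alone passed it (log2 −0.59, adjusted p = 0.000562), as did the fit without the TRIzol siCtrl library at 24 h (adjusted p = 0.00566).

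Pocket proteins moved in opposite directions. Rb1, the gene of the retinoblastoma protein, went from 31.6 CPM (TRIzol), 39.9 and 34.1 CPM (NucleoSpin) to 55.9, 64.1 and 75.6 CPM, a 1.85-fold rise without overlap (log2 0.89, SE 0.136, adjusted p = 4.26e-05). Rbl1, which encodes p107 and is itself a known E2F target, fell from 54.1, 91.3 and 76.4 CPM to 33.4, 46.2 and 45.7 CPM. Its 24 h libraries all lay below the 0 h libraries (log2 −0.81, SE 0.131, adjusted p = 7.36e-05). Rbl2, which encodes p130, the pocket protein of resting cells, rose from 36.2, 32.7 and 32.6 CPM to 61.5, 43.9 and 40.4 CPM. These groups did not overlap either (log2 0.51, SE 0.114, adjusted p = 0.00147), with log2 changes of 0.76 in TRIzol and 0.37 in NucleoSpin. The call was lost without the siCtrl TRIzol library at 0 h (adjusted p = 0.0203) or at 24 h (0.0286).

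Shares within each family are given as a description, with no test. Per length in siCtrl, Ccnd1 made up 75.6% ± 6.44 of D cyclin RNA at 0 h and 48.7% ± 2.28 at 24 h (RPKM shares, SD, n = 3), Ccnd3 16.2% ± 1.71 and 34.2% ± 9.94, and Ccnd2 8.27% ± 5.56 and 17.1% ± 12.2, with overlap for Ccnd2. Among the pocket proteins Rbl1 went from 53.9% ± 5.75 to 28.7% ± 3.99, Rb1 from 25.9% ± 1.39 to 44.6% ± 4.42 and Rbl2 from 20.2% ± 4.45 to 26.8% ± 7.62, with overlap for Rbl2. Within the Cip/Kip family Cdkn1a dominated at both times, with 82.5% ± 4.95 and 88.9% ± 1.39, Cdkn1b had 17.4% ± 4.95 and 10.7% ± 1.38, and Cdkn1c 0.103% ± 0.0404 and 0.37% ± 0.177.

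The log2 ratio of Ccnd3 to Ccnd1 RPKM, which does not depend on library scaling, rose by 1.40 between 0 h and 24 h over the 18 knockdown libraries, and every 24 h value lay above every 0 h value (exact two-sided permutation test, p = 4.11e-05, the smallest this test can give). Mean ratios went from −2.23 ± 0.24 to −0.55 ± 0.33 in siCtrl, from −1.87 ± 0.03 to −0.59 ± 0.1 in siSMYD3#1 and from −1.87 ± 0.11 to −0.62 ± 0.17 in siSMYD3#2 (SD, n = 3). The ratio of Rbl2 to Rbl1 rose by 0.99 (exact two-sided permutation test, p = 0.000864), from −1.43 ± 0.47 to −0.13 ± 0.59 in siCtrl, −1.31 ± 0.51 to −0.21 ± 0.33 in siSMYD3#1 and −1.3 ± 0.44 to −0.73 ± 0.66 in siSMYD3#2. Within NucleoSpin the rises were 1.27 and 0.956 (exact permutation p = 0.00216 each, the smallest for 6 against 6). Both ratios are built from genes already tested above in these libraries, so they restate those changes and are not separate evidence. The test pooled siCtrl with both Smyd3 siRNAs, and in siCtrl alone the exact permutation p was 0.1 for each ratio. With siSMYD3#1 and siSMYD3#2 Ccnd3 changed by −0.05 and 0.11, so there the D cyclin ratio rose mainly by the fall of Ccnd1.

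**Figure D2:**
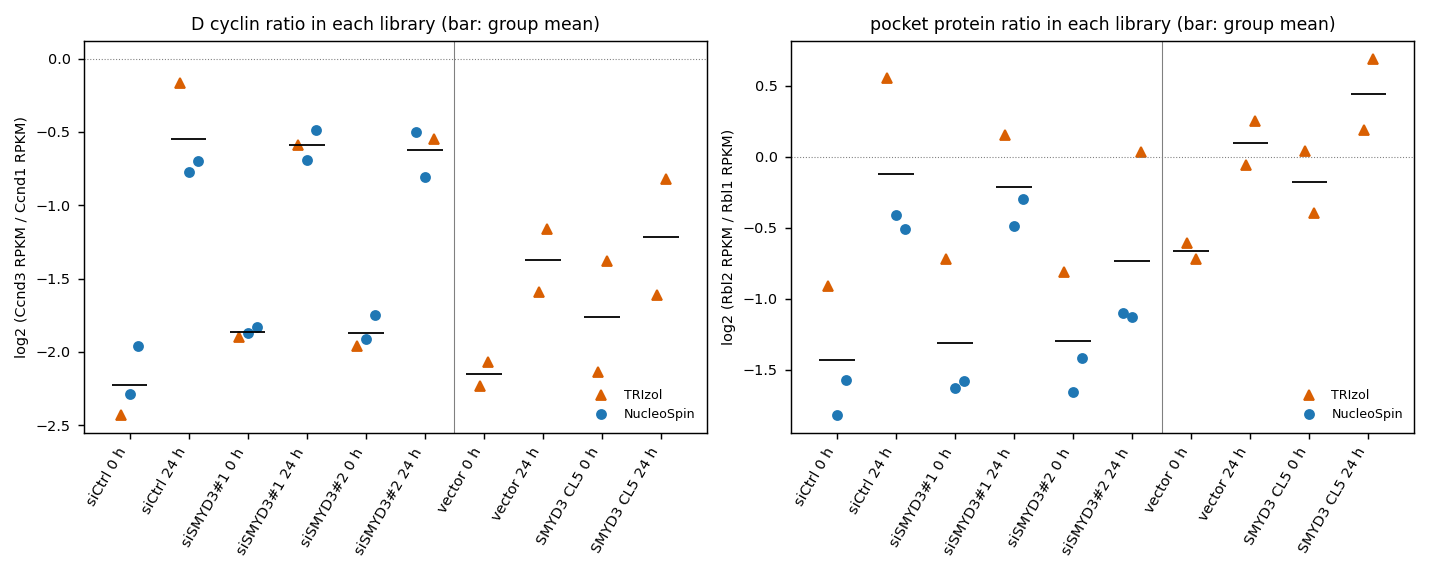
Log2 ratio of Ccnd3 to Ccnd1 (left) and of Rbl2 to Rbl1 (right), in RPKM, for each of the 26 libraries by group, with a bar for the group mean. In the knockdown libraries the D cyclin ratio at 24 h lies above that at 0 h throughout, and in each knockdown group the TRIzol library has the highest pocket protein ratio.

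With siSMYD3#1 and siSMYD3#2, 4 of the 10 genes each passed over the same time course. In the libraries labelled siSMYD3#1, Cdkn1a and Cdkn1b rose and Ccnd1 and Rbl1 fell, against 12.7% of all genes raised and 12.7% lowered. With siSMYD3#2, Cdkn1a, Cdkn1b and Rb1 rose and Ccnd1 fell, against 9.11% raised and 9.88% lowered. Median changes of the 10 genes were 0.28 and 0.41, with 0.02 and 0.01 over all genes.

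Ccnd1 fell with both siRNAs. It went from 310.0 to 314 CPM at 0 h to 108 to 149 CPM at 24 h in siSMYD3#1 (log2 −1.32, SE 0.204, adjusted p = 0.000157) and from 227 to 241 CPM to 89.6 to 129 CPM in siSMYD3#2 (log2 −1.14, SE 0.204, adjusted p = 0.000748). Ccnd3 stayed near its 0 h level. Its libraries were at 155, 160 and 164 CPM at 0 h and 147, 172 and 144 CPM at 24 h in siSMYD3#1, overlapping (log2 −0.05, SE 0.102, adjusted p = 0.736), and at 115, 114 and 125 CPM and 114, 134 and 137 CPM in siSMYD3#2 (log2 0.11, SE 0.102, adjusted p = 0.43).

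Cdkn1a still rose, from 352, 240.1 and 256 CPM (TRIzol first) to 418, 470 and 435 CPM in siSMYD3#1 (log2 0.67, SE 0.141, adjusted p = 0.00117) and from 268, 158 and 169 CPM to 438, 331 and 330.2 CPM in siSMYD3#2 (log2 0.90, SE 0.142, adjusted p = 0.000141). All 24 h libraries were above all 0 h libraries with either siRNA. Cdkn1b gave log2 changes of 0.48 (adjusted p = 0.00526) and 0.51 (adjusted p = 0.00448), close to the 0.52 of siCtrl, and each of those calls was lost when any of the 4 NucleoSpin libraries of its own siRNA was left out (adjusted p 0.0158 to 0.0344). Cdkn1c reached 15, 9 and 5 reads at 24 h in siSMYD3#1 and 8, 2 and 19 reads in siSMYD3#2, and neither change passed (log2 1.23, adjusted p = 0.116, and 1.49, adjusted p = 0.0579).

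Rb1 rose with siSMYD3#2 (log2 0.68, SE 0.138, adjusted p = 0.00109). That call was lost without the NucleoSpin replicate 3 library at 0 h (adjusted p = 0.0108) or the TRIzol replicate 3 library at 24 h (0.0148). With siSMYD3#1 the Rb1 change was 0.40 (SE 0.138, adjusted p = 0.0296). Rbl1 fell with siSMYD3#1, from 42.7, 85.4 and 79.3 CPM to 35.2, 47.0 and 36.5 CPM (log2 −0.74, SE 0.131, adjusted p = 0.000248). The 2 times overlapped, since the TRIzol library was already low at 0 h. In siSMYD3#2 Rbl1 was at 49.2, 82.5 and 64.2 CPM at 0 h and at 42.7, 62.4 and 67.6 CPM at 24 h, a change that did not pass (log2 −0.19, SE 0.13, adjusted p = 0.292).

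**Figure D3:**
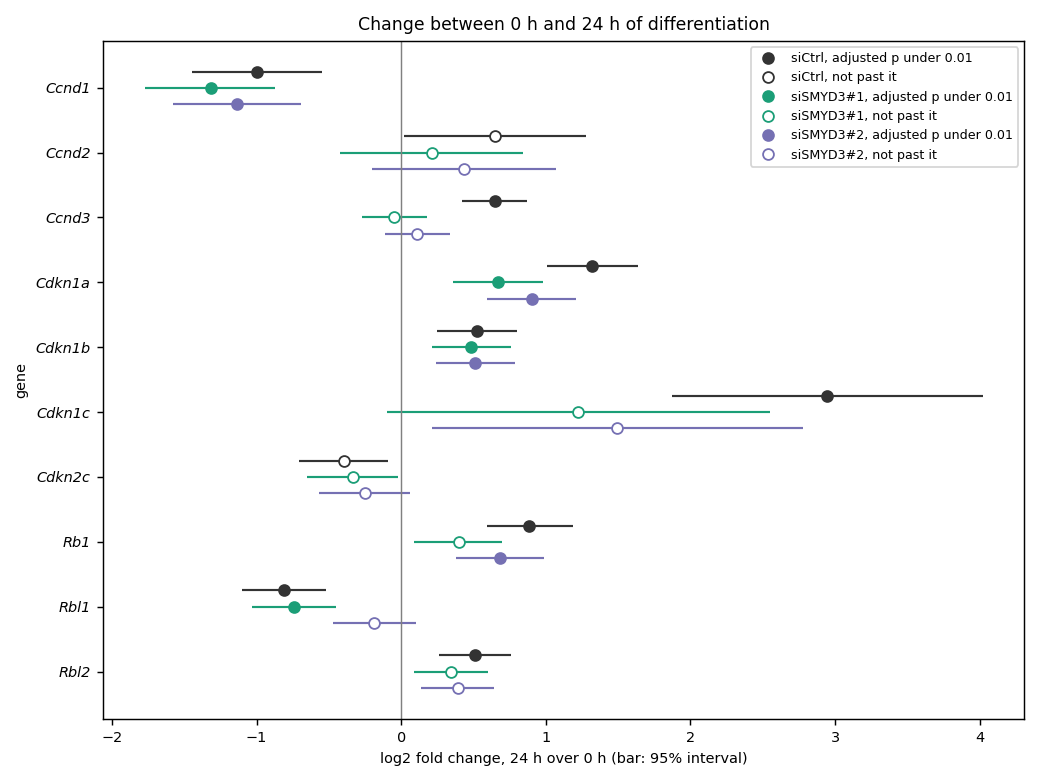
Log2 fold change of each gene at 24 h over 0 h for siCtrl, siSMYD3#1 and siSMYD3#2, with 95% intervals derived from the edgeR fit. Filled points passed an adjusted p of 0.01. Ccnd3 changed by 0.65 in siCtrl and by −0.05 and 0.11 with the siRNAs.

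At 24 h, the direct comparison of the siRNAs with siCtrl asks which of the genes differ once differentiation is under way. Ccnd3 and Rb1 were lower with siSMYD3#1, and Ccnd3 and Cdkn1a were lower with siSMYD3#2, while none of the 10 was higher. Over all genes 2.94% and 2.04% were lowered. The median of the 10 genes was −0.39 and −0.33, against 0 over all genes. The comparisons share the siCtrl libraries, so they are not independent of each other.

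Ccnd3 was the gene lowered by both siRNAs. Its siCtrl libraries at 24 h (189 CPM in TRIzol, 247 and 269 CPM in NucleoSpin) all lay above those of siSMYD3#1 (147, 172 and 144 CPM) and of siSMYD3#2 (114, 134 and 137 CPM). The change was −33.9% with siSMYD3#1 (log2 −0.60, SE 0.102, adjusted p = 0.000663) and −45.2% with siSMYD3#2 (log2 −0.87, SE 0.103, adjusted p = 8.16e-05). Both extractions gave the same direction, at −0.71 in NucleoSpin and −0.36 in TRIzol for siSMYD3#1 and −0.93 and −0.73 for siSMYD3#2.

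Rb1, at 55.9, 64.1 and 75.6 CPM in siCtrl, was at 31.1, 38.9 and 46.4 CPM with siSMYD3#1, a change of −40.8% without overlap (log2 −0.76, SE 0.137, adjusted p = 0.00108). The call was lost without the siSMYD3#1 replicate 2 library at 24 h (log2 −0.71, adjusted p = 0.0108). With siSMYD3#2 its libraries, at 48.4, 43.6 and 49.0 CPM, also lay below siCtrl, but the difference did not pass (log2 −0.45, SE 0.136, adjusted p = 0.0439).

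Cdkn1a changed by −42.8% with siSMYD3#2, at 438 CPM in TRIzol and 331 and 330.2 CPM in NucleoSpin, all below the 596 to 669 CPM of siCtrl (log2 −0.81, SE 0.141, adjusted p = 0.00156). That call was lost without the siCtrl replicate 3 library (adjusted p = 0.0102) or the siSMYD3#2 replicate 2 library at 24 h (0.0106). With siSMYD3#1 all 3 libraries (418, 470 and 435 CPM) again lay below siCtrl, but the difference did not pass (log2 −0.51, SE 0.141, adjusted p = 0.0232). By western blot the study found p21 and cyclin D1 protein unaffected by Smyd3 knockdown, and EdU incorporation was comparable with controls. RNA and protein are unlike measures, and their relation was not tested here.

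Ccnd1 and Cdkn1c did not pass with all libraries, at log2 −0.59 (adjusted p = 0.0784) and −1.94 (0.0108) for siSMYD3#1 and −0.83 (0.0195) and −1.66 (0.0347) for siSMYD3#2. In siCtrl the TRIzol library had 114 CPM of Ccnd1 against 226 and 235 CPM in NucleoSpin. Without that library, Ccnd1 passed with siSMYD3#1 (log2 −0.86, adjusted p = 0.000472) and siSMYD3#2 (−1.09, adjusted p = 9.44e-05), and Cdkn1a (−0.65, adjusted p = 0.00252) and Cdkn1c (−2.24, adjusted p = 0.009) passed with siSMYD3#1. With NucleoSpin libraries alone 5 of the 10 genes were lower with each siRNA, namely Ccnd1 (log2 −0.83 with siSMYD3#1 and −1.0 with siSMYD3#2), Ccnd3 (−0.70 and −0.93), Cdkn1a (−0.51 and −0.97), Cdkn1c (−2.31 and −2.49) and Rb1 (−0.71 and −0.59), with adjusted p from 1.59e-06 to 0.00916, while 6.01% and 5.12% of 15222 genes tested were lowered. The remaining members, Ccnd2, Cdkn1b, Cdkn2c, Rbl1 and Rbl2, passed in neither comparison. Rbl1 stood at log2 −0.06 (adjusted p = 0.86) with siSMYD3#1 and at 0.45 (adjusted p = 0.0395) with siSMYD3#2, where its NucleoSpin libraries had 62.4 and 67.6 CPM against 46.2 and 45.7 CPM in siCtrl.

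**Figure D4:**
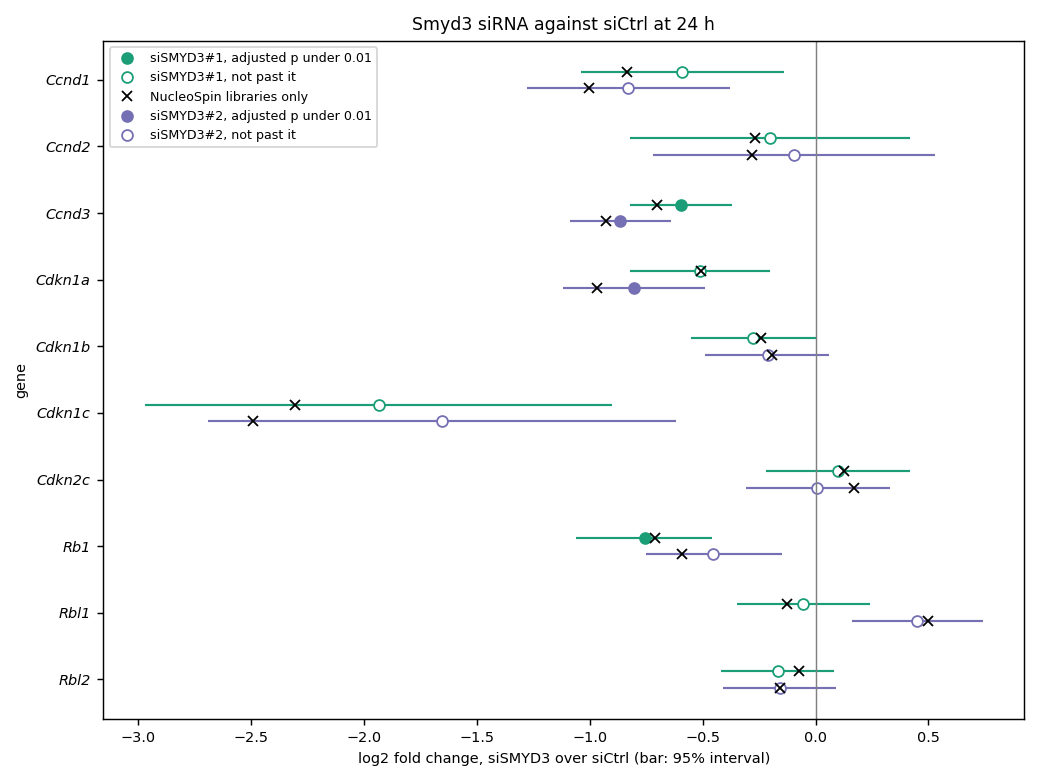
Log2 fold change of each gene at 24 h for siSMYD3#1 and siSMYD3#2 over siCtrl, with 95% intervals derived from the edgeR fit. Filled points passed an adjusted p of 0.01 and crosses give the NucleoSpin libraries alone. Ccnd3 is filled for both siRNAs, and for Ccnd1 the crosses (−0.83 and −1.0) lie below the values from all libraries (−0.59 and −0.83).

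Before differentiation none of the 10 genes passed edgeR's threshold with either siRNA, where 1.43% (siSMYD3#1) and 0.531% (siSMYD3#2) of all genes were called. At an unadjusted p of 0.05 the counts were 0 and 3 of 10, with 13.9% and 10.1% of all genes, and DESeq2 called 0 and 0, with 3.31% and 1.3% of all genes. The 3 were Ccnd1 at 241, 230.5 and 227 CPM with siSMYD3#2 against 428, 352 and 344 CPM in siCtrl (log2 −0.69, SE 0.201, adjusted p = 0.152), Ccnd3 (−0.33, adjusted p = 0.166) and Cdkn1a (−0.39, adjusted p = 0.289). For Ccnd1 and Ccnd3 all siSMYD3#2 libraries at 0 h lay below those of siCtrl. In NucleoSpin alone Cdkn1a passed (log2 −0.45, adjusted p = 0.00896), and Ccnd1 passed without the siCtrl TRIzol library at 24 h (log2 −0.68, adjusted p = 0.00771), a library that enters this contrast only through the shared estimate of spread and the extraction term.

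Whether the 24 h change itself differed from that of siCtrl was tested as an interaction. None of the 10 genes passed in edgeR, with 0.215% of all genes called for siSMYD3#1 and 0.019% for siSMYD3#2. The unadjusted p was under 0.05 for 4 and 3 of them (8.77% of all genes, and 1585 of 15820), and DESeq2 called 1 and 0 (0.891% and 0.702% of all genes). The gene that DESeq2 called was Ccnd3 with siSMYD3#1 (log2 difference −0.69, adjusted p = 0.000817 by DESeq2), for which edgeR gave −0.70 (SE 0.144, adjusted p = 0.0322). That value passed in edgeR without the siCtrl TRIzol library at 24 h (−0.79, adjusted p = 0.00478). For siSMYD3#2 the Ccnd3 difference was −0.54 (95% interval −0.85 to −0.22, adjusted p = 0.133), and the Rbl1 difference 0.62 (95% interval 0.22 to 1.03, adjusted p = 0.187). In NucleoSpin alone edgeR called 2 of the 10 for siSMYD3#1, Ccnd3 (−0.82, adjusted p = 0.00611) and Cdkn1a (−0.65, adjusted p = 0.00644), with 1.05% of all genes, and 0 for siSMYD3#2, with 1.15%.

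The siRNAs were also set against each other at 24 h, where none of the 10 genes passed in edgeR and 3.36% of all genes did. An unadjusted p under 0.05 was found for 3 of the 10, against 22.2% of all genes, and DESeq2 called 1, with 6.37% of all genes. This was Rbl1, lower in siSMYD3#1 than in siSMYD3#2 (log2 −0.51, SE 0.132, adjusted p = 0.0224 by edgeR and 0.00665 by DESeq2), and it passed in edgeR without the siSMYD3#1 TRIzol library (−0.66, adjusted p = 0.00474). Ccnd3 was higher with siSMYD3#1 in all libraries (log2 0.27, 95% interval 0.05 to 0.5, adjusted p = 0.113), and Rb1 gave −0.30 (adjusted p = 0.195).

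The TRIzol and NucleoSpin libraries, which also differ in passage, differed at 0 h for 4 of the 10 genes and for 43.9% of all genes. Ccnd2 was lower in TRIzol, at a log2 difference of −2.51 (adjusted p = 6.28e-14), Cdkn2c gave −0.78 and Rbl1 −0.72, and Cdkn1a was higher at 0.58. The 24 h change itself differed between the extractions for 2 of the 10, Ccnd2 (log2 difference, TRIzol minus NucleoSpin, −1.20, SE 0.135, adjusted p = 2.47e-06) and Cdkn1a (−0.51, SE 0.118, adjusted p = 0.00395), against 10.3% of all genes. Values that did not pass were −0.61 for Ccnd1 (adjusted p = 0.029), −0.42 for Cdkn1b (0.0107), 0.46 for Cdkn2c (0.0196) and 0.38 for Rbl2 (0.0135).

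The other genes of the pathway were followed over lists of 71 genes, of which 68 were tested. At 24 h in siCtrl 43 fell and 4 rose, with a median of −0.58. The S phase targets of E2F fell in 16 of 16, with a median of −1.44, led by Cdc6, which loads the replicative helicase (log2 −2.06, adjusted p = 9.15e-06), and the helicase subunit Mcm5 (−1.81, adjusted p = 1.27e-07). Of the kinases and cyclins 8 of 11 fell, with Ccne2 at −2.14 and Ccne1 at −1.65, both encoding E cyclins. Cdk4, the partner of the D cyclins, fell by 0.37 on the log2 scale (adjusted p = 0.00432) and Cdk6 did not pass (−0.31, adjusted p = 0.167). Of the E2F and DP factors 6 of 10 fell and Tfdp2 rose (0.53), and of the list of DREAM and MuvB components 6 of 9 fell, with Mybl2 at −1.91.

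Parts of the ubiquitin ligases that act on CDK inhibitors fell in 2 of 5, with Dtl, which directs p21 to degradation, at −1.54. Among p53 and its targets, a group that includes regulators of Cdkn1a, Bbc3 (0.95) and Btg2 (0.89) rose, Trp53 (−0.38) and Mdm2 (−0.39) fell and 5 of 9 did not pass. Of the myogenic list Myog, which encodes myogenin, rose by 7.25 (adjusted p = 8.45e-09) and Id1 (−1.58), Id2 (−2.86) and Id3 (−2.69), inhibitors of MyoD-type factors, fell. Cdkn2d, the other INK4 gene tested, did not pass (0.07). Cdkn2a, Cdkn2b and Skp2 were not tested, either for too few reads or because the symbol did not match a single Ensembl gene.

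Over the same time course with siSMYD3#1 41 fell and 4 rose, and with siSMYD3#2 33 fell and 3 rose. All 16 S phase targets fell with siSMYD3#1 (median −1.17) and 13 of 16 with siSMYD3#2 (median −0.88). Against siCtrl at 24 h 3 and 4 of 68 list genes passed, where 5.85% and 3.7% of all genes did. E2f2 (log2 −1.26, adjusted p = 0.00974), E2f3 (−0.39, adjusted p = 0.0083) and Myog (−3.59, adjusted p = 5.4e-06) were lower with siSMYD3#1, and Myog (−1.81, adjusted p = 0.00125) and Btg2 (−0.47, adjusted p = 0.00427) were lower and Pola1 (0.69, adjusted p = 0.00108) and Mki67 (0.39, adjusted p = 0.00437) higher with siSMYD3#2. The S phase targets had medians of 0.06 with siSMYD3#1 and 0.4 with siSMYD3#2 against siCtrl. Pola1 encodes the catalytic subunit of DNA polymerase alpha and Mki67 the proliferation marker Ki-67.

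In the overexpression experiment none of the 10 genes passed edgeR's threshold in any comparison, and DESeq2 called 0 as well, with 0.667% and 0.611% of all genes called over time, 5.84% and 4.93% between the lines and 0.0112% for the interaction. Between 24 h and 0 h, 0% of all genes passed in vector cells and 0% in SMYD3 CL5. The libraries labelled SMYD3 CL5 differed from vector in 1.07% of all genes at 0 h and 0.964% at 24 h, and the interaction in 0%. At an unadjusted p of 0.05 the counts of the 10 genes were 0 in vector over time, 2 in SMYD3 CL5 over time, 1 and 1 for SMYD3 CL5 against vector at 0 h and 24 h, and 0 for the interaction. Over all genes the shares at that p were 7.04% and 6.38% over time, 18.3% (0 h) and 2488 of 17835 genes (24 h) between the lines, and 1.75%.

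Ccnd1 was at 252 and 257 CPM at 0 h and 191 and 142 CPM at 24 h in vector cells, and at 202 and 189 CPM and then 150.1 and 88.2 CPM in SMYD3 CL5. Both lines were lower at 24 h without overlap (log2 −0.61, adjusted p = 0.747, and −0.71, adjusted p = 0.761). Without SMYD3 CL5 replicate 1 or 2 at 0 h the latter was −0.69 or −0.77. Ccnd2 was at 30.2 and 46.5 CPM and then 49.0 and 57.2 CPM in vector cells and at 33.7 and 24.1 CPM and then 30.1 and 21.4 CPM in SMYD3 CL5. Its 24 h libraries in SMYD3 CL5 lay below those of the vector line (log2 −1.04, 95% interval −1.90 to −0.19, adjusted p = 0.151). Ccnd3 was at 118 and 119 CPM in vector cells and 91.8 and 93.3 CPM in SMYD3 CL5 at 24 h (log2 −0.36, adjusted p = 0.649).

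Cdkn1a was at 224 and 288 CPM and then 246 and 378 CPM in vector cells, and at 270.4 and 352 CPM and then 360 and 313 CPM in SMYD3 CL5, and these groups overlapped. Cdkn1c had 1 and 3 reads in vector cells at 0 h, at or under a floor of 3 reads, and 17 and 16 reads in SMYD3 CL5 (adjusted p = 0.0695, and 0.0322 and 0.0697 without replicate 1 or 2), with 10 and 7 against 18 and 10 reads at 24 h. Cdkn2c was at 34.1 and 44.0 CPM at 0 h and 25.99 and 23.4 CPM at 24 h in SMYD3 CL5 (log2 −0.66, adjusted p = 0.655, and −0.85 and −0.47 without replicate 1 or 2 at 0 h, adjusted p = 0.013 and 0.434). In vector cells it was at 38.0 and 36.2 CPM and then 32.1 and 29.8 CPM.

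The SMYD3 CL5 libraries at 0 h differed for Cdkn1b (37.6 CPM in replicate 2 against 99.6 CPM in replicate 1), Rb1 (18.9 against 60.2 CPM), Rbl1 (22.4 against 52.4 CPM) and Rbl2 (21.4 against 68.1 CPM). With both libraries the log2 differences from vector at 0 h were −0.13, −0.51, −0.76 and −0.17, none past the threshold. Without replicate 2 they were 0.44, 0.12, −0.24 and 0.47. Without replicate 1 instead, they were −0.94, −1.52, −1.44 and −1.17. The signs for Cdkn1b, Rb1 and Rbl2 therefore turned on which library was left out. In SMYD3 CL5 over time, Cdkn1b and Rbl2 stood at 1.19 and 1.28 without replicate 1 and at −0.21 and −0.37 without replicate 2. In these fits the lone library was assumed to vary like the other groups.

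**Figure D5:**
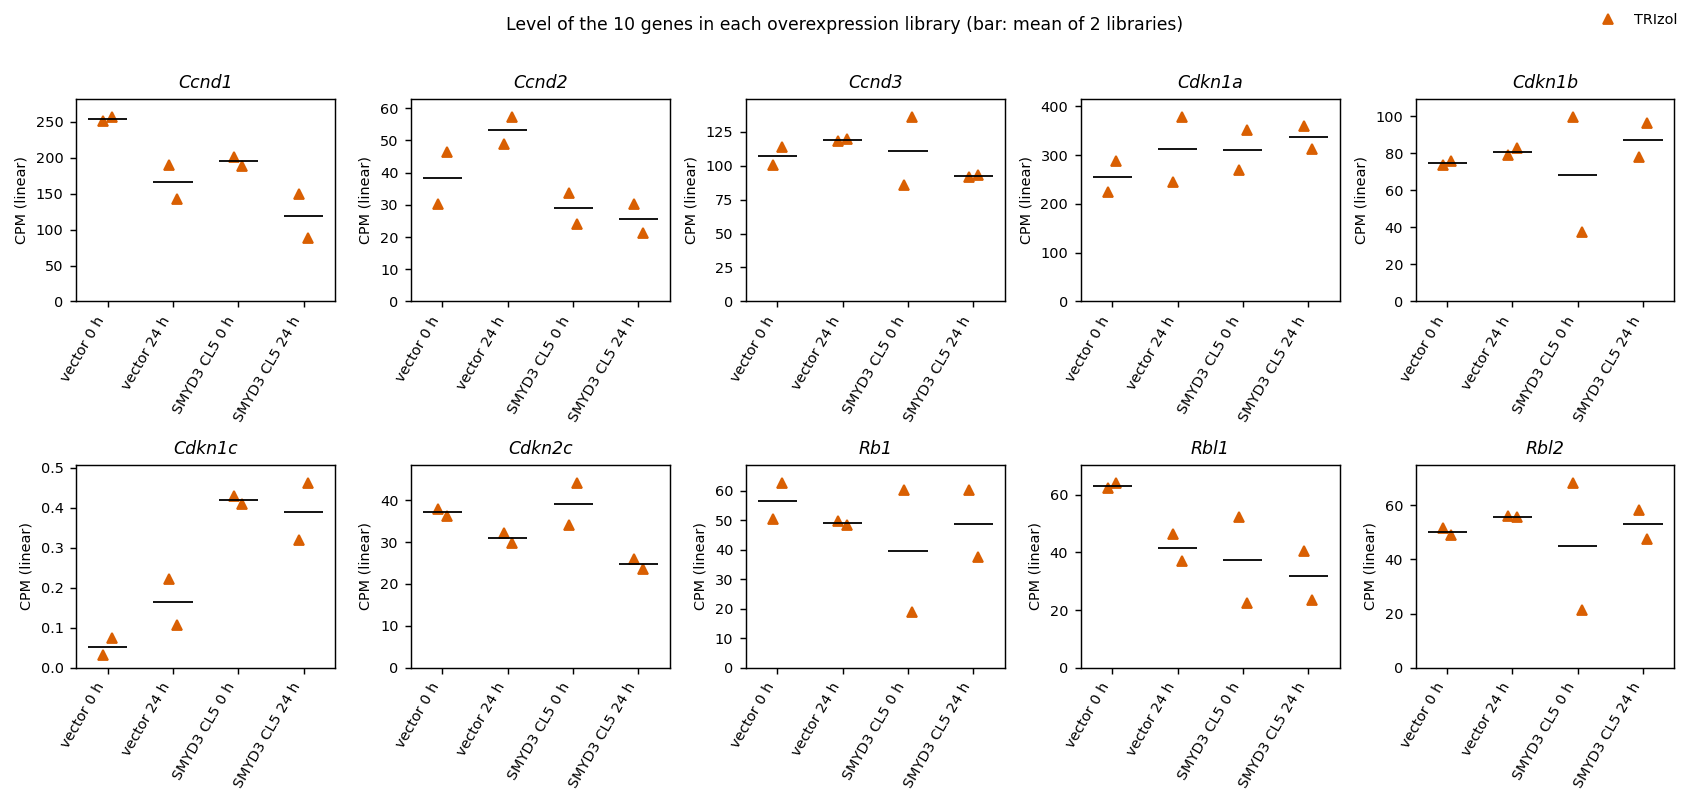
Level of each of the 10 genes (CPM, linear axis) in the 8 overexpression libraries, all TRIzol, by line and time, with a bar for the mean of 2 libraries. The replicates of SMYD3 CL5 at 0 h lie far apart for Cdkn1b, Rb1, Rbl1 and Rbl2.

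With all libraries neither ratio passed 0.05. Ccnd3 over Ccnd1 was higher at 24 h by 0.66 (exact two-sided permutation p = 0.0857) and Rbl2 over Rbl1 by 0.688 (p = 0.0571) over 4 libraries at each time, where the smallest p this exact test can give is 0.0286. Without SMYD3 CL5 replicate 1 at 0 h the differences were 0.599 (exact permutation p = 0.171) and 0.842 (p = 0.0286), and without replicate 2 they were 0.852 (p = 0.0286) and 0.696 (p = 0.0857), so which ratio passed turned on which library was left out. Mean log2 ratios of Ccnd3 to Ccnd1 went from −2.15 ± 0.11 to −1.37 ± 0.31 in vector cells and from −1.76 ± 0.54 to −1.21 ± 0.56 in SMYD3 CL5 (SD, n = 2). Of the 68 list genes Myog alone passed, higher in SMYD3 CL5 at 0 h (15.9 and 81.9 CPM against 0.283 and 0.535 CPM in vector cells, log2 6.86, adjusted p = 0.00885), and it also passed without replicate 1 (7.66, adjusted p = 6.53e-05) or replicate 2 (5.26, adjusted p = 0.000333) of that group.

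Over the 18 knockdown libraries, with the extraction effect removed from log2 CPM, correlations between the 10 genes ran from −0.82 (Ccnd2 with Cdkn2c) to 0.85. Cdkn1a correlated with Cdkn1b at r = 0.85 and with Rb1 at 0.81, Cdkn1c with Rb1 at 0.85 and Rb1 with Rbl2 at 0.82, while Cdkn1a and Rbl1 ran opposite (−0.81). Among the weakest were Ccnd1 with Ccnd3 (0.13) and with Ccnd2 (−0.25) and Ccnd2 with Rbl2 (0.17). Among all genes tested the 2 most alike were Htra3 and Zbtb4 for Cdkn1a (r = 0.979 and 0.968), Unc13d and Cryab for Ccnd3 (0.932 and 0.928), Prr9 and Itgb7 for Ccnd1 (0.945 each) and Ulk3 and Masp1 for Ccnd2 (0.925 and 0.913). For Cdkn1b they were Slc22a17 and Rnf11 (0.963 and 0.962), for Cdkn1c Gng2 and Tnnc1 (0.921 and 0.914) and for Cdkn2c Nsmce4a and Cdca3 (0.955 and 0.951). The pocket proteins ran most closely with Bmt2 and Wdr26 for Rb1 (0.955 and 0.953), Rbm15 and Zgrf1 for Rbl1 (0.973 and 0.97) and Tcf12 and Arhgap28 for Rbl2 (0.961 and 0.957). These values share libraries, groups and depth and are a description.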

How the data were processed

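Poly(A) RNA was sequenced from 18 knockdown and 8 overexpression libraries. The authors deposited raw read counts per Ensembl gene, 1 table per library. Per the submitters' processing notes, reads were checked with FastQC 0.11.5, aligned with HISAT2 2.1.0 to GRCm38 and counted with featureCounts of Subread 1.6.3. The annotation release and the strand setting of the counting are not given in the sources used here. Gene symbols came from GENCODE M21, which held 54409 of the 55341 IDs.

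Counts were tested in R 4.3.3 with edgeR 4.0.16, separately for each experiment: filterByExpr, TMM scaling, robust quasi-likelihood fits over all groups, and extraction as a covariate for the knockdown libraries, after the study's model. Benjamini-Hochberg adjusted p covered all genes tested (15820 and 17835) with a threshold of 0.01. All 10 genes passed the filter on low counts, Cdkn1c with 1 to 38 reads per library. Log2 CPM used a prior count of 2. CPM and RPKM per library were computed from the deposited counts. DESeq2 1.42.0 and the other alternatives are given in the closing section. The test script was tested on simulated data.

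The genes and lists were chosen with earlier results of these data known. The genes named are the 10, Smyd3 and Myog, up to 3 rises and 3 falls of the pathway lists per comparison, and the 2 genes most alike to each of the 10. Cell type markers, opposite-strand neighbours and pathway genes that were not tested are named too. Pathway genes beyond that rule (Cdk4, Cdk6, Cdkn2d, Cdc6, Mcm5, Ccne1, Tfdp2, Mybl2, Dtl, Trp53, Mdm2, Id1) were named after their values were seen. The study calls its samples biological replicates, and the labels do not say which came from separate cultures, so p-values measure the spread between these samples, which may be in part technical.

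Replicate numbers in library names count the libraries of a group in the order of the series. In the knockdown groups replicate 1 is the TRIzol library, except in siSMYD3#2 at 24 h, where it is replicate 3. The numbers used for pairing come from a sample table of the study and differ from these. For siCtrl at 0 h, replicates 1, 2 and 3 are numbers 3, 1 and 2 there. Knockdown libraries with the same study number deviated together (r from 0.366 to 0.851 over the pairs), which coincides with extraction, as within NucleoSpin alone r was −0.041 to 0.177. In the overexpression libraries r was −0.097 to 0.483.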

Additional observations from a re-analysis of the deposited data

Results flagged for a closer look

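The change between 0 h and 24 h differed between TRIzol and NucleoSpin libraries for 2 of the 10 genes and for 10.3% of all genes, in a test added after the levels of Ccnd2 had been seen. For Ccnd2 the difference of the log2 changes, TRIzol minus NucleoSpin, was −1.20 (SE 0.135, edgeR adjusted p = 2.47e-06). In each of siCtrl, siSMYD3#1 and siSMYD3#2 it was lower at 24 h in TRIzol (log2 −0.50, −0.63 and −0.15) and higher in NucleoSpin (1.08, 0.57 and 0.72). For Cdkn1a the difference was −0.51 (SE 0.118, adjusted p = 0.00395), with rises of 0.89, 0.25 and 0.71 in TRIzol and 1.52, 0.87 and 1.01 in NucleoSpin. The TRIzol libraries also came from an earlier passage, so the 2 cannot be told apart.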

How the results depend on the processing

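At a threshold of 0.01, 0 of the 10 genes' calls reversed under any alternative. Of 3450 recomputed values, 102 that passed in neither fit changed sign, none with a reported size above 0.511. The numbers of the 10 genes past the threshold moved as follows, in the order siCtrl, siSMYD3#1 and siSMYD3#2 over time, then siSMYD3#1 and siSMYD3#2 against siCtrl at 24 h. Requiring at least a doubling or halving gave 2, 1, 1, 0 and 0 (9.99%, 7.06%, 5.39%, 1.9% and 1.02% of all genes, against 29.4%, 25.4%, 19%, 5.85% and 3.7% as reported). Leaving out the extraction term gave 5, 1, 1, 0 and 1 (10.6%, 6.66%, 3.69%, 0.645% and 0.114%). Fitting all 26 libraries together gave 4, 1, 2, 0 and 1 (16.2%, 11.7%, 7.23%, 1.96% and 0.503%), and 1 gene (Cdkn1c) for SMYD3 CL5 against vector at 0 h (11.4%). At an adjusted p of 0.05 the first 3 were 9, 6 and 5 (42%, 38.2% and 32%). For siSMYD3#1 against siCtrl at 24 h the number was 4 with DESeq2 (8.55%), 4 at an adjusted p of 0.05 (11.2%), and 5 without the low-count filter (4.75%) or in NucleoSpin alone (11.6%). For siSMYD3#2 it was 6 at 0.05 (9.01%) and 5 without the filter (3.71%) or in NucleoSpin alone (8.38%). At 0 h siSMYD3#2 gave 1 without the filter (0.66%) and 1 in NucleoSpin (0.907%). For siSMYD3#1 against siSMYD3#2 the number was 1 with DESeq2 (6.37%), without the filter (3.47%) or at 0.05 (8.53%), and 2 in NucleoSpin (9.76%). For the siSMYD3#1 interaction it was 1 with DESeq2 (0.891%) or at 0.05 (0.664%), and 2 without the filter (0.879%) or in NucleoSpin (1.05%). The cause was not tested, except that NucleoSpin alone leaves out a library per group.

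Leaving out each library in turn gave 7 to 9 for siCtrl over time, 3 to 4 for siSMYD3#1, 2 to 4 for siSMYD3#2, 1 to 5 and 1 to 3 against siCtrl at 24 h, 0 to 1 for siSMYD3#2 against siCtrl at 0 h, for siSMYD3#1 against siSMYD3#2 and for the siSMYD3#1 interaction, 0 to 2 for SMYD3 CL5 over time, 0 to 3 for SMYD3 CL5 against vector at 0 h, and 0 to 0 elsewhere. The Ccnd3 to Ccnd1 rise ranged over 1.347 to 1.432 and the Rbl2 to Rbl1 rise over 0.877 to 1.087. In siCtrl alone they were 1.678 and 1.306 (exact permutation p = 0.1, the smallest for 3 against 3) and in the overexpression libraries 0.66 and 0.688.

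With the replicate block, the pairing by the study's number changed no call, and the ratios rose by 1.403 and 0.99 in 9 of 9 pairs (exact sign-flip permutation p = 0.00391, the smallest it can give). With 2 libraries a group, the overexpression experiment had 4 residual degrees of freedom against 11, and Cdkn1c, at 1 to 38 reads, is limited by depth.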
